A study of Mus musculus with 24 samples.

Results

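The small leucine-rich proteoglycans (SLRPs) are a family of secreted matrix proteins, and 10 of their genes are described here: Dcn, Bgn, Aspn, Lum, Fmod, Prelp, Omd, Kera, Ogn and Podn. They were chosen by name among the gene probes of the arrays, with 1 probe per gene, and they stand among 17728 genes named on the tested probes. Gene expression was measured in C57BL/6 mice in efferent nerve fibres (EN, the ventral root) and afferent nerve fibres (AN, the dorsal root) of spinal segments L4 to L6. The fibres came from newborn mice (P0) and from mice of 1, 3 and 5 weeks (named 1 W, 3 W and 5 W). Each nerve at each age was 1 of 8 groups and was measured on 3 arrays, which gave 24 arrays. The labels give all groups the same strain and name no treatment, so the groups are set apart by nerve and age. The fibres of 9 animals per age were gathered by group, and the spinal arachnoid was removed before dissection. The methods name 3 independent experiments per group without saying how the animals were divided among them, so the p values measure the spread between these arrays, which may be technical.

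SLRPs have a short core protein built of leucine-rich repeats, and most carry chains of chondroitin, dermatan or keratan sulfate. They bind collagen fibrils and limit how thick the fibrils grow, and several of them also bind growth factors or their receptors. In a peripheral nerve, the collagen-rich endoneurium surrounds each axon with its Schwann cell, and its fibroblasts are known to make decorin and other matrix proteins. Dcn, Bgn and Aspn belong to class I, Lum, Fmod, Prelp, Omd and Kera to class II, Ogn to class III and Podn to class V.

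Of the 10 genes, 9 were tested, since their probe stood well above background on every array of 1 or more groups. Kera was the exception. Dcn, Lum, Bgn, Fmod, Omd, Ogn, Prelp and Podn were above background on all 24 arrays, and Aspn on 23. All values below are log2 signals from the authors' quantile normalised table, and a difference of 1 is a change of 2-fold. A difference was called where the adjusted p of limma was below 0.05 over all 36409 tested probes and the fold change was above 2. Whole roots were measured, so fewer cells of a type and less RNA per cell cannot be told apart, and the cells that made each transcript were not resolved. The 10 listed markers of endoneurial fibroblasts, among them Pdgfra, Sox9 and Apod, were above background on all 24 arrays. Of the 13 listed markers of the pia and arachnoid, 12 had a probe. Of these, 11 were also above background on all 24 arrays in these roots, from which the arachnoid had been removed. So were 10 of 10 Schwann cell, 8 of 9 perineurial, 8 of 9 mural and 10 of 12 epineurial and adventitial fibroblast markers. The counts were 4 of 9 for cartilage and 3 of 8 for bone and tendon markers.

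Aspn, Omd and Ogn lie side by side on chromosome 13, behind Ecm2, and all are read in the same direction, yet their signals took different courses. Their promoters are therefore shown, as the 250 bases before the start of each gene on the plus strand of GRCm38.p6 (RefSeq), with matches on either strand to 3 motifs in capitals. These motifs were the TATA box (TATAAA), the CCAAT box (by its own letters) and the binding motif of TEAD factors (CATTCC).

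Aspn, chr13:49544193-49544442: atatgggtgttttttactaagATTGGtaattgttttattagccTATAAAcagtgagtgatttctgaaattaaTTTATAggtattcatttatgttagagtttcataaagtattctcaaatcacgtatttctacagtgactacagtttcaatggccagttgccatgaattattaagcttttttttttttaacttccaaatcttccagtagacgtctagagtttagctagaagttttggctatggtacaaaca
Omd, chr13:49582212-49582461: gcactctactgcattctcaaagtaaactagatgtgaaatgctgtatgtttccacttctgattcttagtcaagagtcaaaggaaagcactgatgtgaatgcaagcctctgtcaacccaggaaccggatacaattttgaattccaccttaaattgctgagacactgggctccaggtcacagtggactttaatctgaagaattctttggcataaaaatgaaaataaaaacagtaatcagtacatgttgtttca
Ogn, chr13:49607765-49608014: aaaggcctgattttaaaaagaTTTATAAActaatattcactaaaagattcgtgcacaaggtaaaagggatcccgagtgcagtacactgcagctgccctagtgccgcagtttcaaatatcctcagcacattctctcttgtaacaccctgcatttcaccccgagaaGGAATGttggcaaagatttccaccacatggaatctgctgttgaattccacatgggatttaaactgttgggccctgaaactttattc

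The Aspn window held 1 CCAAT box match and 2 TATA box matches on opposite strands, at bases -207 to -202 and -178 to -173 from the start. The Ogn window held 1 TEAD motif match and 2 TATA box matches, which overlap on opposite strands at bases -229 to -224 and -227 to -222. The Omd window held none of them. The TATA box was found in 12.37% of all 32851 promoter windows of this length, the CCAAT box in 33.85% and the TEAD motif in 12.64%. An E-box (CANNTG, in 66.22% of all windows) occurred 1 time in the Aspn window, 3 times in the Ogn window and not in the Omd window. The GC box (GGGCGG, in 32.74% of all windows) and the AP-1 motif (TGANTCA, in 6.75%) occurred in none of the 3 windows. The G and C content was 30.0% for Aspn, 38.4% for Omd and 42.0% for Ogn, below the median of 52.4% over all windows. Bgn had a G and C content of 64.4%, and the 2 windows of Podn had 78.0% and 64.0%. A window was found for 8 of the 10 members, all except Dcn and Lum. The matches are a description of the letters and name no bound factor.

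Ogn, which encodes osteoglycin (mimecan), a class III member first purified from bone, rose more than any other tested member. In EN the 3 arrays read 14.24, 13.46 and 13.75 at P0, 16.17, 16.31 and 15.99 at 1 W, 17.22, 17.05 and 17.19 at 3 W, and 17.48, 17.49 and 17.59 at 5 W. In AN they read 13.11, 12.73 and 12.93 at P0, 15.40, 15.63 and 15.07 at 1 W, 16.83, 16.83 and 16.52 at 3 W, and 17.37, 17.38 and 17.51 at 5 W. No array of an age overlapped an array of another age in either nerve. From P0 to 5 W, Ogn rose by 3.70 ± 0.17 (SE) in EN (13.0-fold, adjusted p = 9.12e-12, limma) and by 4.49 ± 0.17 in AN (22.5-fold, adjusted p = 1.38e-12, limma). The largest step came between P0 and 1 W, with 2.34 ± 0.17 in EN and 2.44 ± 0.17 in AN. On the slide that held P0 and 5 W arrays together, the rise was 3.89 in EN and 4.55 in AN. No spot on any array was saturated.

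Dcn encodes decorin, which binds fibrillar collagen and sequesters TGF-beta. The EN arrays read 16.05, 16.38 and 16.77 at P0, 16.77, 16.69 and 17.27 at 1 W, 17.89, 17.87 and 17.94 at 3 W, and 17.56, 18.15 and 18.02 at 5 W. The AN arrays read 15.60, 16.41 and 16.52 at P0, 16.21, 16.36 and 17.09 at 1 W, 17.77, 17.81 and 17.47 at 3 W, and 16.81, 17.68 and 17.81 at 5 W. The arrays of P0 and 1 W overlapped in both nerves, whereas all arrays of 3 W lay above them. From P0 to 5 W, Dcn rose by 1.51 ± 0.30 in EN (2.85-fold, adjusted p = 0.000291) and by 1.26 ± 0.30 in AN (2.39-fold, adjusted p = 0.00158). The AN rise was 0.97, under 2-fold, without replicate 1 of P0, and 0.87 with array quality weights.

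Prelp encodes a proline- and arginine-rich member that binds collagen and heparan sulfate. In EN it read 11.68, 12.05 and 11.89 at P0, 12.26, 12.31 and 12.44 at 1 W, 13.68, 13.63 and 13.83 at 3 W, and 13.65, 14.65 and 14.11 at 5 W. In AN it read 11.35, 11.83 and 11.99 at P0, 11.43, 11.59 and 11.86 at 1 W, 13.19, 13.31 and 13.06 at 3 W, and 12.85, 13.66 and 13.36 at 5 W. The step came between 1 W and 3 W, where it was 1.38 ± 0.23 in EN (adjusted p = 0.000235) and 1.56 ± 0.23 in AN (adjusted p = 7.17e-05). Prelp rose over the 5 weeks by 2.27 ± 0.23 in EN (4.81-fold) and by 1.57 ± 0.23 in AN (2.96-fold). A second Prelp probe that was above background on all 24 arrays gave 1.63 in EN (adjusted p = 9.26e-05) and a called rise in AN as well (adjusted p = 0.00665). The remaining tested Prelp probe was above background on 14 arrays, none of them an EN array of P0. It was at least 2.32-fold higher at 5 W in EN (adjusted p = 0.0253), while its difference in AN was 0.60 (adjusted p = 0.545).

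Podn encodes podocan, the class V member, known from kidney glomeruli and smooth muscle. The EN arrays read 8.78, 8.74 and 7.99 at P0, 9.21, 9.34 and 8.52 at 1 W, 11.02, 10.93 and 10.37 at 3 W, and 10.53, 9.49 and 10.62 at 5 W. The AN arrays read 8.32, 7.72 and 8.04 at P0, 8.26, 8.29 and 8.09 at 1 W, 10.54, 9.73 and 9.33 at 3 W, and 9.44, 8.98 and 10.69 at 5 W. All arrays of 3 W and 5 W lay above all arrays of P0 and 1 W in AN, and in EN as well. Between P0 and 5 W, Podn rose by 1.71 ± 0.40 in EN (adjusted p = 0.00156) and by 1.68 ± 0.40 in AN (adjusted p = 0.00194). Between 1 W and 3 W it rose by 1.75 ± 0.40 in EN and 1.66 ± 0.40 in AN. All 6 arrays of 3 W lay on 1 slide that held no array of P0 or 1 W, and with the slide as a block this step was 0.75 (adjusted p = 0.245) in EN and 0.66 (adjusted p = 0.285) in AN. On the slide that held P0 and 5 W arrays, Podn was higher at 5 W by 1.12 in EN and 1.1 in AN.

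Omd encodes osteomodulin, a keratan sulfate proteoglycan of mineralised tissue. In EN it read 9.10, 8.65 and 8.91 at P0, 8.01, 8.30 and 8.74 at 1 W, 9.34, 9.45 and 9.76 at 3 W, and 9.78, 10.60 and 10.10 at 5 W. In AN it read 9.15, 9.09 and 8.89 at P0, 7.96, 8.38 and 8.33 at 1 W, 9.70, 9.88 and 10.27 at 3 W, and 9.76, 10.31 and 9.91 at 5 W. Its lowest mean in both nerves was therefore at 1 W, and in AN the 1 W arrays did not overlap those of P0. The difference of 1 W from P0 was -0.82 ± 0.23 in AN (adjusted p = 0.0141) and -0.54 ± 0.23 in EN (adjusted p = 0.0873), both under 2-fold. Omd rose between 1 W and 3 W by 1.17 ± 0.23 in EN (adjusted p = 0.00094) and by 1.73 ± 0.23 in AN (adjusted p = 2.39e-05). From P0 to 5 W it rose by 1.28 ± 0.23 in EN, and the difference in AN was 0.95 ± 0.23 (adjusted p = 0.00172), under 2-fold.

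Lum encodes lumican, a keratan sulfate proteoglycan of collagen fibrils in the cornea and skin. The EN arrays read 13.77, 13.33 and 13.62 at P0, 13.88, 13.88 and 14.04 at 1 W, 14.67, 14.34 and 14.62 at 3 W, and 15.06, 14.72 and 14.29 at 5 W. The AN arrays read 13.15, 13.07 and 13.06 at P0, 13.43, 13.75 and 13.52 at 1 W, 13.86, 13.87 and 13.29 at 3 W, and 13.71, 13.76 and 14.40 at 5 W. The P0 arrays were the lowest in both nerves. Lum rose over the 5 weeks by 1.12 ± 0.21 in EN (2.17-fold, adjusted p = 0.000177), and the difference in AN was 0.86 ± 0.21 (1.82-fold, adjusted p = 0.00196). The EN rise was just under 2-fold without replicate 2 of P0 (0.995) or replicate 1 of 5 W (0.93).

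**Figure D1:**
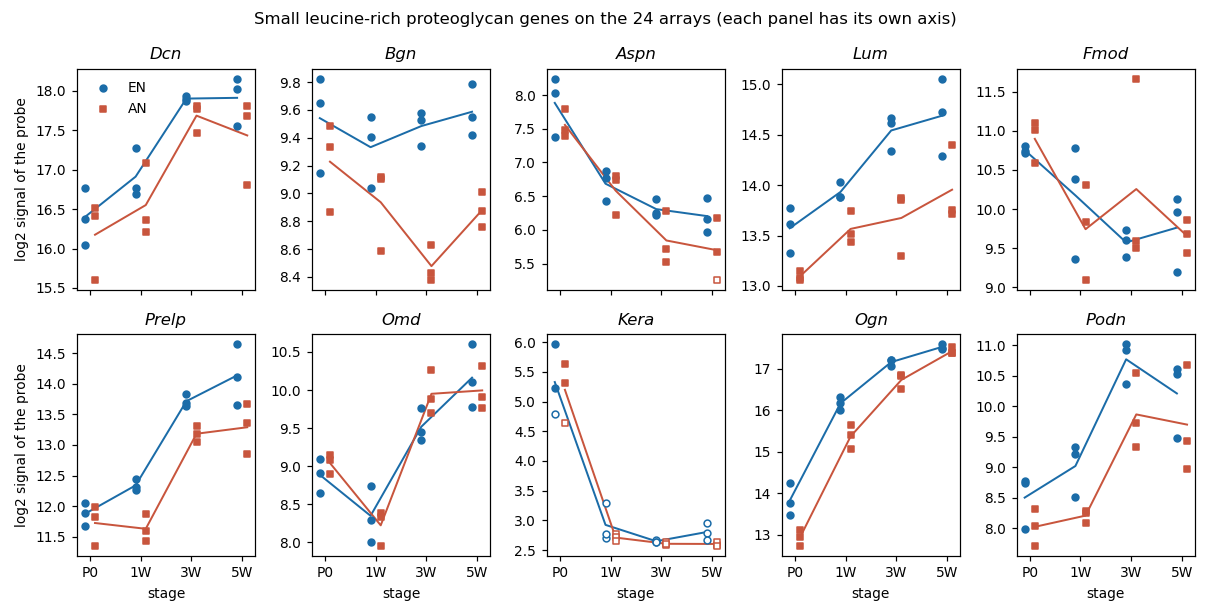
Log2 signal of the probe of each SLRP gene on the 24 arrays, by stage (horizontal axis) in the efferent (EN, circles) and afferent (AN, squares) nerve fibres. Each point is 1 array, lines join the means of 3 arrays, open points were not well above background, and each panel has its own vertical axis. Ogn climbed from means of 13.8 (EN) and 12.9 (AN) at P0 to 17.5 and 17.4 at 5 W, whereas Aspn and Kera were highest at P0.

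Aspn fell in both nerves and Fmod in AN, and Kera was detected only at P0. Aspn encodes asporin, a class I member without a glycosaminoglycan chain that binds collagen and TGF-beta. In EN it read 8.03, 8.24 and 7.38 at P0, 6.42, 6.87 and 6.76 at 1 W, 6.46, 6.22 and 6.25 at 3 W, and 6.48, 6.16 and 5.97 at 5 W. In AN it read 7.79, 7.49 and 7.39 at P0, 6.21, 6.74 and 6.79 at 1 W, 5.53, 6.28 and 5.72 at 3 W, and 5.67, 6.17 and 5.25 at 5 W. All P0 arrays lay above all later arrays in both nerves. The 5.25 of replicate 3 in AN at 5 W was not well above background, while the other 2 arrays of that group were. Aspn fell over the 5 weeks by 1.68 on the log2 scale in EN (SE 0.26, 3.20-fold, adjusted p = 2.34e-05) and by 1.86 in AN (SE 0.26, 3.63-fold, adjusted p = 7.84e-06). With the normexp background correction, the falls were smaller, at -1.04 in EN and -1.07 in AN.

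Fmod encodes fibromodulin, a keratan sulfate proteoglycan that is abundant in tendon and cartilage. The EN arrays read 10.80, 10.74 and 10.72 at P0, 9.36, 10.38 and 10.78 at 1 W, 9.38, 9.73 and 9.61 at 3 W, and 9.19, 9.97 and 10.13 at 5 W. The AN arrays read 10.58, 11.01 and 11.10 at P0, 9.09, 9.84 and 10.30 at 1 W, 9.59, 9.51 and 11.67 at 3 W, and 9.43, 9.86 and 9.68 at 5 W. AN replicate 3 of 3 W was the highest of all 24 arrays. Fmod fell over the 5 weeks by 1.24 on the log2 scale in AN (SE 0.46, adjusted p = 0.0305), and the difference in EN was -0.99 ± 0.46 (adjusted p = 0.0756). The AN call was lost without replicate 2 or 3 of P0 or without replicate 1 or 3 of 5 W, with an adjusted p of 0.0613 to 0.0876.

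Kera encodes keratocan, the keratan sulfate proteoglycan of the cornea. Its probe was well above background on 4 arrays, and these were replicates 1 and 2 of P0 in each nerve. The P0 arrays read 5.97, 5.24 and 4.78 in EN and 5.64, 5.32 and 4.64 in AN, whereas the 18 later arrays read between 2.57 and 3.30 and none was well above background. Kera did not pass the filter on dim probes and has no test. Set against the detection limit of the later arrays (on each array, the dimmest signal still marked as above background), the P0 mean of all 3 arrays was at least 1.22-fold higher than at 5 W in EN and at least 1.63-fold higher in AN.

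Most tested markers of cartilage, bone and tendon were also lower at 5 W than at P0. The mean log2 signal of the 7 tested cartilage markers was 9.95 to 10.56 in EN and 9.81 to 10.31 in AN at P0, and 7.92 to 8.69 and 7.49 to 8.13 at 5 W. The mean of the 7 tested bone and tendon markers was 7.93 to 8.45 in EN and 7.61 to 8.93 in AN at P0, and 5.59 to 6.41 and 5.62 to 6.36 at 5 W. Of the cartilage markers, 5 fell from P0 to 5 W in EN and 4 in AN, and of the bone and tendon markers 5 fell in EN and 3 in AN. Among all tested probes, 14.5% fell in EN and 12.7% in AN. Cnmd, the gene of the secreted protein chondromodulin, rose in both nerves against the rest of the cartilage list. Of the cartilage list, Matn3 was never above background, while Col2a1, the main collagen of cartilage, was above background on all 24 arrays. The part of cartilage, bone or tendon RNA in the values of Aspn, Fmod and Kera was not tested.

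Bgn encodes biglycan, a close relative of decorin that also activates the innate immune receptors TLR2 and TLR4. In EN it read 9.15, 9.82 and 9.65 at P0, 9.04, 9.40 and 9.55 at 1 W, 9.53, 9.34 and 9.58 at 3 W, and 9.55, 9.79 and 9.42 at 5 W. In AN it read 8.87, 9.33 and 9.48 at P0, 8.59, 9.11 and 9.11 at 1 W, 8.63, 8.38 and 8.43 at 3 W, and 9.01, 8.87 and 8.76 at 5 W. The ages overlapped in EN. The difference of 5 W from P0 was 0.05 ± 0.20 in EN (adjusted p = 0.861) and -0.35 ± 0.20 in AN (adjusted p = 0.154), and no call was made between any 2 ages compared. A second Bgn probe gave -0.10 in EN and -0.75 in AN (adjusted p = 0.00421), and it differed from the first in sign between P0 and 1 W in EN, with 0.51 against -0.21.

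The changes with age can be read against all probes tested. From P0 to 1 W, 1 of the 9 tested members rose in EN (Ogn) and 1 fell (Aspn), where 6.25% of all tested probes rose and 5.67% fell. In AN 1 member rose (Ogn), beside 4.96% of all tested probes. The AN difference of Aspn (-0.976) stood just under 2-fold and was not called. With the replicate number as a block, Fmod was called lower in AN (-1.15, adjusted p = 0.0242, against 0.0808 without the block). Replicate numbers are not known to link arrays of different ages, so no conclusion is drawn from this call. The deviations of such arrays from their group means had a mean correlation of 0.0462. From 1 W to 3 W, 3 members rose in EN (Omd, Prelp and Podn) and 5 in AN (Dcn, Omd, Ogn, Prelp and Podn), while 5.65% and 6.19% of all tested probes rose. The EN steps of Dcn (0.989, adjusted p = 0.0187, limma) and Ogn (0.994) stood just under 2-fold. With no minimum fold change, 6 members differed in each nerve, beside 27.4% and 29.9% of all tested probes. With the slide as a block, Podn was not called in either nerve, nor Dcn in AN, which left 2 members called higher in EN and 3 in AN. From 3 W to 5 W, limma called no member in either nerve, where 1.12% of all tested probes were called in EN and 1.68% in AN. At an unadjusted p below 0.05, 2 members differed in EN and 1 in AN over these last 2 weeks, beside 16.8% and 19.1% of all tested probes. The AN member was Ogn, with 0.69 ± 0.17 (adjusted p = 0.0315), under 2-fold.

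Over the whole span from P0 to 5 W, 6 members rose in EN (Dcn, Lum, Omd, Ogn, Prelp and Podn), where 15.4% of all tested probes rose. Aspn fell there, as did 14.5% of all tested probes. In AN 4 members rose (Dcn, Ogn, Prelp and Podn) and 2 fell (Aspn and Fmod), where 15.2% of all tested probes rose and 12.7% fell. The median difference of the 9 tested members was 1.28 in EN and 0.95 in AN, while that of all tested probes was 0.04 and 0.03. For Lum, Omd and Fmod the nerves fell on different sides of the call, but the difference between the nerves was called for no member.

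**Figure D2:**
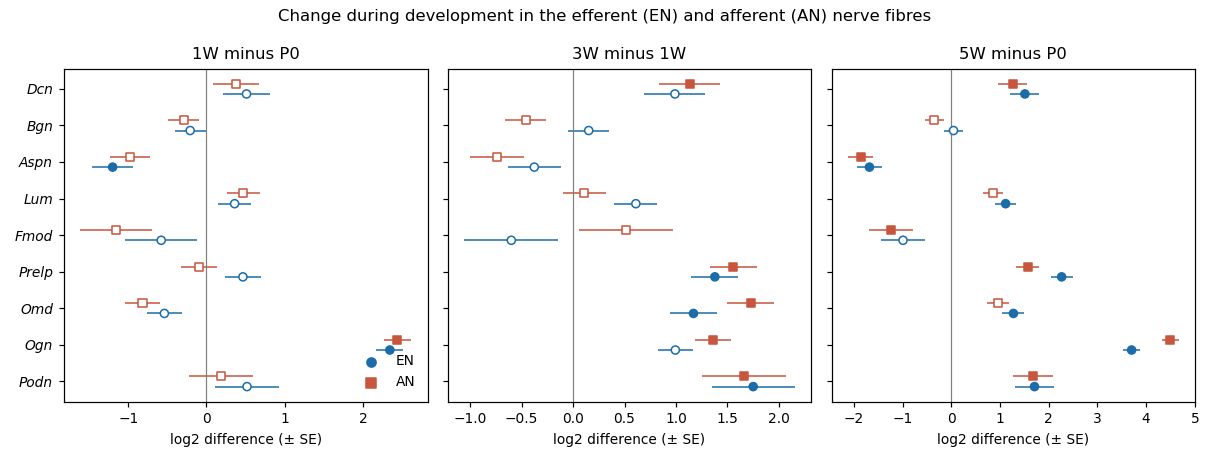
Log2 difference of each tested SLRP gene between ages (horizontal axes, later minus earlier) in EN (circles) and AN (squares), from the limma fit with 3 arrays per group. Bars are standard errors and filled symbols were called. Ogn lies farthest to the right from P0 to 5 W, at 3.70 in EN and 4.49 in AN, and Aspn farthest to the left.

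The comparison of AN with EN at each age asked where the sensory and motor roots differ. Signals of most members were lower in AN, by small amounts. The median difference (AN minus EN) of the 9 tested members went from -0.31 at P0 through -0.40 at 1 W and -0.47 at 3 W to -0.51 at 5 W, while that of all tested probes lay between -0.06 and 0.01. At 1 W and at 5 W, 0 of the 9 tested members had a higher mean in AN, and at P0 and 3 W 2 had (Fmod and Omd). These members share their arrays, so the 9 differences are not independent. Markers of other cell types moved between the nerves as well. At 1 W, the median AN to EN difference was -0.77 for the meningeal markers (0 of 12 tested had a higher mean in AN, and 1 was called lower), -0.98 for the perineurial markers (1 of 8 had a higher mean, and 2 were called lower) and -0.34 for the mural cell markers (0 of 9 had a higher mean). Of all tested probes, 0.371% were called lower in AN at 1 W. At 3 W the mural cell markers again had 0 of 9 higher means in AN, with a median of -0.35. Other lists went both ways by their mean log2 signal at 1 W. Lower in AN were the endoneurial fibroblast (11.21, against 11.42 in EN), Schwann cell (15.68 and 15.80) and cartilage markers (9.12 and 9.16). So were the other SLRP genes (8.91 and 9.47), the collagens (13.77 and 13.84) and the ligands and receptors. The mean log2 signal of the proliferation markers was 12.15 in AN and 11.59 in EN. That of the bone and tendon markers was 7.07 and 6.09, and that of the genes for sugar chain synthesis 10.07 and 10.06. That of the epineurial and adventitial fibroblast markers was 9.14 and 9.10, though their median difference was -0.21. The part of any of these cell types in the members' differences was not tested.

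Bgn was the only tested member called between the nerves, at 3 W, when it was lower in AN (difference -1.01 ± 0.20, 2.01-fold, adjusted p = 0.00503), beside 0.882% of all tested probes that were lower. The 3 AN arrays lay between 8.38 and 8.63, below the EN arrays at 9.34 to 9.58. The fold stood close to the threshold, and it fell under 2-fold with the normexp correction (-0.88), with array quality weights (-0.96), with the mean over its probes (-0.76), and without replicate 2 or 3 of AN or replicate 1 or 3 of EN. The second Bgn probe gave -0.52 ± 0.20 at 3 W (adjusted p = 0.148), and the opposite direction at P0, at 0.40 ± 0.20 (adjusted p = 0.738), where its 3 AN arrays (7.33 to 7.44) lay above its 3 EN arrays (6.57 to 7.28). Arrays of the same age and replicate number in the 2 nerves shared a slide, and in 12 of these 12 pairs the first Bgn probe was lower in AN, by differences of -1.15 to -0.16.

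Ogn was also lower in AN in 12 of the 12 pairs, with a gap that is given by age. The pairs differed by -1.13 to -0.73 at P0, by -0.93 to -0.68 at 1 W, by -0.68 to -0.22 at 3 W and by -0.11 to -0.08 at 5 W. The difference was -0.89 ± 0.17 at P0 (adjusted p = 0.0189) and -0.80 ± 0.17 at 1 W (adjusted p = 0.0119), under 2-fold in both. It was -0.43 ± 0.17 at 3 W (adjusted p = 0.167) and -0.10 ± 0.17 at 5 W (adjusted p = 0.798). The gap at 5 W differed from that at P0 by 0.79 ± 0.25 (adjusted p = 0.153, and 0.0144 with the pairs as a block), which was not called. Scaled to the 75th percentile of each array in place of the quantiles, the differences were -0.69 at 3 W and -0.33 at 5 W.

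Lum differed by -0.87 ± 0.21 at 3 W (adjusted p = 0.0179) and by -0.73 ± 0.21 at 5 W (adjusted p = 0.0391), under 2-fold in both. The AN and EN arrays of Lum did not overlap at P0, 1 W or 3 W, and at 5 W AN replicate 3 overlapped the EN arrays. Prelp differed by -0.71 ± 0.23 at 1 W (adjusted p = 0.103) and by -0.85 ± 0.23 at 5 W (adjusted p = 0.0301). The 5 W difference of Prelp passed 2-fold without replicate 2 of AN (-1.03) or replicate 1 of EN (-1.09), and that of Lum with array weights (-1.02). In the pairs, Lum, Prelp and Dcn were lower in AN in 11 of 12 each, and Podn in 10. Aspn was lower in 8, Fmod in 7 and Omd in 6.

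At P0, 1 W and 5 W, limma called 0 members between the nerves, while 0.255%, 0.371% and 0.821% of all tested probes were lower in AN. Over all tested probes, 26 were called higher and 93 lower in AN at P0, 879 and 135 at 1 W, and 906 and 299 at 5 W. At an unadjusted p below 0.05, 2 members differed at P0, 2 at 1 W and 3 at 5 W, beside 7.34%, 13.7% and 20.7% of all tested probes. The change of the AN to EN difference since P0 was called for 0 members at 1 W, 3 W and 5 W, where 0.0632%, 0.525% and 0.931% of all tested probes were called in either direction. At an unadjusted p below 0.05, 0, 1 and 2 members passed in these interaction tests, beside 7.06%, 9.18% and 10.8% of all tested probes.

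**Figure D3:**
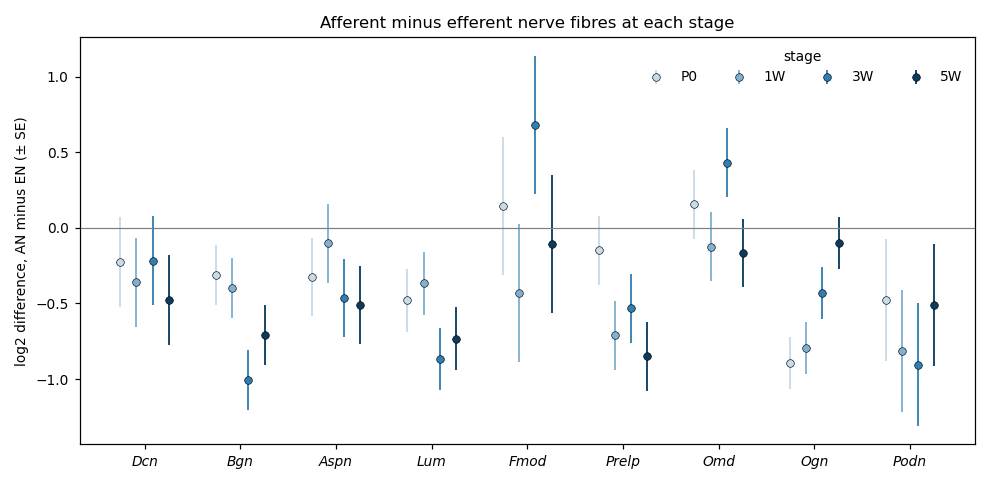
Log2 difference between the afferent and efferent nerve fibres (AN minus EN, vertical axis) for each tested SLRP gene at the 4 ages, from the limma fit with 3 arrays per group. Bars are standard errors and darker points are later ages. Most points lie below 0, Bgn reaches -1.01 at 3 W, and Ogn goes from -0.89 at P0 to -0.10 at 5 W.

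AN replicate 3 of 3 W stood apart from its group, with an array weight of 0.216 against 2.26 and 1.52 for replicates 1 and 2. Its mean over the meningeal markers was the highest of the 3 (11.63, against 10.93 at the lowest), and its mean over the endoneurial fibroblast markers was the lowest (10.94, against 11.57 at the highest). It was also the highest for perineurial (12.06, against 11.11 at the lowest), epineurial and adventitial fibroblast (9.83, against 9.25) and bone and tendon markers (6.47, against 5.26). For mural (11.11, against 11.51 at the highest) and Schwann cell markers (15.79, against 16.01) it was the lowest. Without it, the AN to EN difference of Fmod at 3 W was -0.02 in place of 0.68, and that of Bgn was -0.98. The part of RNA from meningeal or any other of these cells in these values was not tested.

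The endoneurial fibroblast markers were described beside the members. Their mean log2 signal was 10.80 to 11.15 in EN and 10.77 to 10.93 in AN at P0, and 11.71 to 11.84 and 10.94 to 11.57 at 3 W. At 5 W it was 11.37 to 11.76 in EN and 10.90 to 11.51 in AN, so the AN arrays of 5 W overlapped those of P0. From P0 to 5 W, 4 of these 10 markers rose and 1 fell in EN, and 3 rose and 1 fell in AN. The medians were 0.52 and 0.42. Beside these counts, 15.4% of all tested probes rose and 14.5% fell in EN, and 15.2% and 12.7% in AN. Sox9, a transcription factor of these fibroblasts, rose by 1.76 ± 0.31 in EN and 2.07 ± 0.31 in AN, and Tnxb, the gene of tenascin-X, rose by 2.81 ± 0.77 and 2.91 ± 0.77. Wif1, an inhibitor of Wnt signalling, fell in both nerves, with differences of -2.21 in EN and -2.89 in AN. Between the nerves (AN minus EN), the medians of the list from P0 to 5 W were -0.15, -0.20, -0.45 and -0.27, next to -0.31, -0.40, -0.47 and -0.51 for the SLRP members. The part of fibroblast number in the members' values was not tested. The meningeal markers had a median of -0.94 in EN and -1.22 in AN from P0 to 5 W, with 2 higher and 6 lower of 12 tested in EN and 2 higher and 7 lower in AN.

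Of the collagens, which SLRPs bind, more fell than rose. Of 12 genes of fibrillar and fibril-associated collagens, 2 rose and 5 fell in EN from P0 to 5 W, and 1 rose and 6 fell in AN. The medians were -0.76 and -0.87. Of all tested probes, 15.4% rose and 14.5% fell in EN, and 15.2% rose and 12.7% fell in AN. Col3a1, the fibrillar collagen of young connective tissue, fell by 1.03 on the log2 scale in EN and by 1.40 in AN. Col6a3, a chain of the microfibrils that decorin and biglycan bind, fell by 1.35 in EN and by 2.05 in AN. Col1a1 and Col1a2, the chains of type I collagen, differed by -0.22 and -0.04 in EN and by -0.72 and -0.46 in AN, all under 2-fold. Col5a3, a minor fibrillar chain, rose in both nerves, by 1.76 ± 0.18 in AN, and Col14a1, a fibril-associated collagen, rose by 1.73 ± 0.24 in EN.

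Of 8 further SLRP genes listed, 4 were tested, and Optc, the neighbour of Prelp, was never above background. Ecm2, the neighbour of Aspn, rose by 2.92 ± 0.21 in EN (7.55-fold) and by 2.24 ± 0.21 in AN (4.74-fold) from P0 to 5 W. Tsku, the gene of tsukushi, rose by 1.33 ± 0.24 in EN. Chad and Chadl were not called from P0 to 5 W in either nerve. Along chromosome 13, Ecm2 and Ogn thus rose and Aspn fell in both nerves. Omd was higher at 5 W by 1.28 in EN and by 0.95 in AN, where it stayed under 2-fold (adjusted p = 0.00172, limma).

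Among 23 tested genes for the synthesis of the sugar chains, 2 rose and 6 fell in EN from P0 to 5 W, and 2 rose and 5 fell in AN, with medians of 0.23 and 0.05. The 2 that rose were Chst1 (3.89-fold in EN and 3.99-fold in AN) and Chst2 (5.09-fold and 3.33-fold), sulfotransferases that act on keratan sulfate and related sugars. The lowest differences were those of Chst5, also a sulfotransferase, in EN, and of Chsy3, a chondroitin sulfate synthase, in AN. Chst5 was well above background on all P0 arrays but on 0 of 3 EN arrays and 2 of 3 AN arrays at 5 W, so it was at least 5.37-fold lower in EN, and its difference in AN was -2.57. Chsy3 was well above background on 1 of 3 arrays of each nerve at 5 W, with differences of -3.19 in EN and -2.89 in AN. Chsy1, a chondroitin sulfate polymerase, fell in both nerves, with differences of -2.10 in EN and -2.69 in AN. Of 12 listed ligands and receptors of SLRPs, 1 rose and 2 fell in EN and 2 rose and 2 fell in AN. Beside the counts of both lists, 15.4% of all tested probes rose and 14.5% fell in EN, and 15.2% and 12.7% in AN. Lrp1, an endocytic receptor of decorin, rose by 1.63 ± 0.20 in EN and 1.22 ± 0.20 in AN, and Tgfb2, a growth factor that decorin binds, fell in both, with differences of -1.74 and -1.29.

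**Figure D4:**
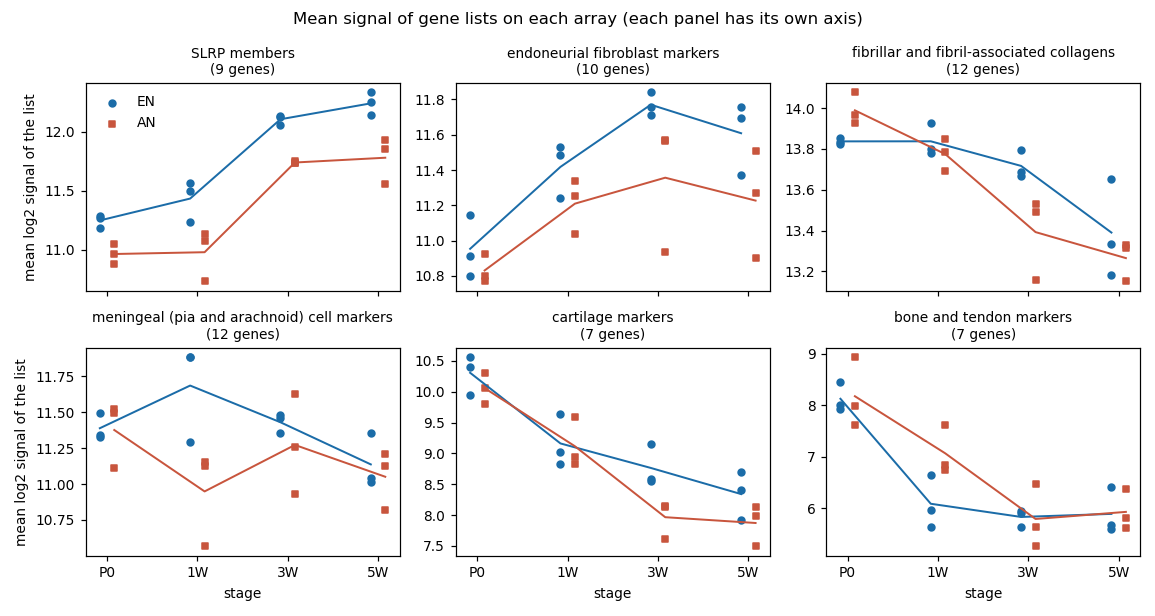
Mean log2 signal (vertical axis, its own in each panel) of the tested genes of 6 lists on each array, by stage, in EN (circles) and AN (squares), with lines through the means of 3 arrays. The SLRP members and the endoneurial fibroblast markers were higher at 3 W than at P0, whereas the cartilage, bone and tendon markers were highest at P0.

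The members also differed in how closely they moved with each other over the 24 arrays. Dcn and Prelp had a Pearson r of 0.933, and 0.814 for their deviations from the group means. Ogn and Aspn had an r of -0.851, and -0.023 for their deviations. Among 14286 other genes above background on all 24 arrays, the gene most like Ogn was Tmbim1 (r = 0.9955), that most like Dcn was Rrm2b (r = 0.966), and that most like Prelp was Kif5b (r = 0.967). The 3 genes most like Podn were Pik3r1 (r = 0.954), Oip5os1 (r = 0.9475) and Sox9 (r = 0.940), in this order. The points share the 8 groups and their slides, so the values include any course with age that the genes share.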

How the data were processed

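RNA of 24 samples was hybridised to Agilent SurePrint G3 mouse arrays with 1 colour (Cyanine-3). The authors deposited the fluorescence intensity of each spot from Feature Extraction 10.7.1.1, background-subtracted, with marks for spots well above background, and a table of log2 values of 56743 probes that their methods describe as quantile normalised in GeneSpring. The log2 table was the main source, and the intensity files gave the background marks and the alternatives. Median signals of the arrays ranged from 45.4 to 191 and local backgrounds from 23 to 46. The number of arrays limits the precision.

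A probe was tested if 1 or more groups had it well above background on each of their 3 arrays, which left 36409 of 56605 gene probes. A limma model (version 3.58.1, R 4.3.3, lmFit and eBayes, 16 residual degrees of freedom) held the means of all 8 groups, and p values were adjusted by Benjamini-Hochberg over all tested probes. Each gene was read from its probe with the highest mean over the 24 arrays, and other probes served as a check. All 10 members are named. From the other lists, which are given by counts and medians, the up to 3 genes with the highest signal or largest change may be named, and Optc, Matn3 and Erbb3 were named after their values were seen. The genes most like a member were ranked by Pearson r. Members and lists were chosen with earlier results of these data known. The lists were other SLRP genes, sugar chain synthesis, collagens, ligands and receptors, and markers of endoneurial, epineurial, perineurial, meningeal, mural, Schwann, cartilage, bone and tendon, and proliferating cells.

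Arrays of the 2 nerves with the same age and replicate number shared a slide, and the correlation of their deviations from the group means was 0.107 to 0.646 in all 12 pairs. At 3 W, where all arrays lay on 1 slide, it was 0.1073 to 0.2135. The numbers were taken to pair arrays within an age, but shared animals and a shared slide cannot be told apart. The main model held no term for the pairs. The 24 arrays lay on 4 slides scanned on 3 days. Alternatives were other values (scanner signal, 75th percentile scaling, normexp with offset 50), other filters, the mean over probes, blocks for replicate number, slide and scan, array weights, smaller fits, other thresholds and leaving out each array. The procedure was tested on simulated data. Probe positions were on the mm9 build and are not printed, and promoters came from RefSeq (GRCm38.p6).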

Additional observations from a re-analysis of the deposited data

Results flagged for a closer look

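For 3 genes of the lists set beside the SLRP genes, the change with age differed between the nerves, by the interaction test of limma with adjusted p below 0.05 and a difference above 2-fold. Met, the receptor of hepatocyte growth factor to which decorin can bind, had an AN to EN difference that was 1.88 higher at 3 W and 2.38 higher at 5 W than at P0 (adjusted p = 0.00804 and 0.000938). Its log2 signal went from a mean of 9.86 at P0 to 8.71 at 5 W in EN and from 9.47 to 10.69 in AN. Cnmd, the gene of chondromodulin, had interactions of -2.46 at 3 W and -2.52 at 5 W (adjusted p = 0.0165 and 0.0108), with means of 12.84 in EN and 10.61 in AN at 5 W. Erbb3, a neuregulin receptor of Schwann cells, had interactions of 1.03 at 3 W and 1.14 at 5 W (adjusted p = 0.00979 and 0.00313).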

How the results depend on the processing

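Of 25 called differences of single members, 16 kept the call and all 25 kept their direction under every alternative that gave a value. The others were Bgn between the nerves at 3 W, Lum in EN and Dcn and Fmod in AN from P0 to 5 W, Aspn in EN from P0 to 1 W, Podn in both nerves, Prelp in EN and Dcn in AN from 1 W to 3 W. Number of members called, by alternative, where it moved by over 1.5 times: with no minimum fold change it was 1 at both P0 and 1 W, 2 at 3 W and 3 at 5 W between the nerves, 6 in EN and 3 in AN (1 W to 3 W and P0 to 1 W), and 1 in AN from 3 W to 5 W, and it moved by less in AN from 1 W to 3 W (6 in place of 5) and from P0 to 5 W (8 in place of 6). Between the nerves at 3 W it was 0 with normexp, with the mean over probes or with array weights, and at 5 W 1 with array weights. In AN from P0 to 1 W it was 2 with the 75th percentile, without the filter on dim probes, with the replicate block, with the slide block, with array weights or by unadjusted p. In EN from P0 to 1 W it was 1 with normexp or with only probes above background on all 24 arrays, and from 1 W to 3 W it was 5 with the 75th percentile in EN and 3 with the slide or scan block in AN. Leaving out each array gave 1 to 2 members in AN from P0 to 1 W, 3 to 5 in EN from 1 W to 3 W, and 0 to 1 between the nerves at P0, 3 W and 5 W. Between the nerves at P0, Ogn was called without replicate 2 of EN (-1.07), and in AN from P0 to 1 W Aspn was called without replicate 2 or 3 of P0 or of 1 W (-1.08 to -1.01). Without replicate 2 of EN at 3 W, Dcn (1.01) and Ogn (1.04) were also called in EN from 1 W to 3 W. The replicate block changed no other call of a member, and the replicate block that pairs the nerves within each stage, added after seeing the data, left 0, 0, 1 and 0 members called between the nerves. Over all tested probes, normexp called 1.51 to 2.28 times fewer in 11 comparisons (6874 in place of 10898 in EN from P0 to 5 W), and the block of pairs called 220 in place of 119 at P0 and 1742 in place of 1134 at 3 W between the nerves. Fits of only the groups compared called 0 in place of 119 at P0 and 35 in place of 1205 at 5 W, and array weights 750 in place of 23 for the interaction at 1 W. With normexp, the share of higher calls from 3 W to 5 W in EN was 73.2% in place of 62.7%, and with the 75th percentile that of the 1 W interaction was 23.5% in place of 34.8%. Kera, and Aspn on 1 array of AN at 5 W, are limited by signal over background.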

Other observations

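Other cell types of the root were followed through listed markers. For comparison, 15.4% of all tested probes rose and 14.5% fell in EN over the 5 weeks, and 15.2% and 12.7% in AN. From P0 to 5 W, 6 of 10 Schwann cell markers rose in AN and 0 fell, and in EN 3 rose and 1 fell, with medians of 1.13 and 0.52. All 5 proliferation markers fell in both nerves, with medians of -4.07 in EN and -4.49 in AN. Of 9 mural cell markers, 4 rose and 1 fell in EN, and 2 rose and 0 fell in AN. Of 12 epineurial and adventitial fibroblast markers, 4 rose and 3 fell in EN, and 3 rose and 2 fell in AN. Of 8 tested perineurial markers, 2 rose and 0 fell in EN, and 2 rose and 2 fell in AN.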
